A study of Zea mays with 4 samples.

Results

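The basal endosperm transfer layer is the band of endosperm cells that faces the maternal tissue at the base of the maize kernel, and sucrose, amino acids and ions enter the seed through it. Its cells build wall ingrowths that enlarge the plasma membrane, they split incoming sucrose with a cell wall invertase, and they secrete families of small cysteine-rich peptides. Described here are 6 of the 34567 gene models listed in any library: mn1 (GRMZM2G119689), mrp1 (GRMZM2G111306), meg1 (GRMZM2G354335), the MEG-type genes GRMZM2G094054 and GRMZM2G088896, and the basal layer antifungal peptide gene bap-3a (GRMZM2G133382). They were taken by identifier from a given list, which was chosen with earlier results of these data known. All 6 were listed in every library, and all passed the filter on low counts.

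The RNA came from maize endosperm collected at 10 days after pollination. There were 2 libraries of wild type and 2 of a mutant labelled dek, called A and B in each genotype. Every library pooled 8 to 10 individuals, and 2 segregating ears supplied the pools, though no label says which pools shared an ear. The labels name neither the mutated gene nor the inbred background, so the genotype could not be checked through the mutated transcript.

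Library totals ran from 13119658 to 14776699 estimated counts. Levels are FPKM as deposited, that is, fragments scaled to transcript length and to library size. Where 4 levels follow each other they belong to wild type A, wild type B, dek A and dek B, in that order. Fold changes are log2 differences of dek against wild type from 1 edgeR quasi-likelihood fit to the estimated counts of 24624 genes, scaled by TMM, and a gene was called at a Benjamini-Hochberg adjusted p under 0.05. Of all genes tested, 7.98% were called higher in dek and 8.85% lower. For 51.1% of the genes tested, both dek libraries lay above both wild-type libraries in FPKM, so groups without overlap in that direction were common.

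Of the 6 genes, 3 were called higher in dek and none lower: bap-3a and the MEG-type genes GRMZM2G094054 and GRMZM2G088896. The levels of all 6 lay higher in both dek libraries than in both wild-type libraries, and the fold differences ran from 3.63 for meg1 to 27.9 for bap-3a. The median of the log2 fold changes was 2.20, against 0.01 over all genes tested. The mn1, mrp1 and meg1 genes did not pass the threshold. Wild type A held 3.33 to 7.69 times the FPKM of wild type B for the 6 genes. On TMM-scaled counts this ratio was 7.76 for mn1, 7.64 for mrp1 and 4.06 for meg1. These exceeded the edgeR fold differences between genotypes of 3.97, 3.83 and 3.63. For bap-3a the pool ratio of 3.58 was far smaller than the fold difference. The DESeq2 Wald test called the same 3 genes, where 8.75% of all genes were called higher. In whole endosperm pools, a different number of transfer cells and a different amount of RNA per transfer cell cannot be told apart.

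**Figure D1:**
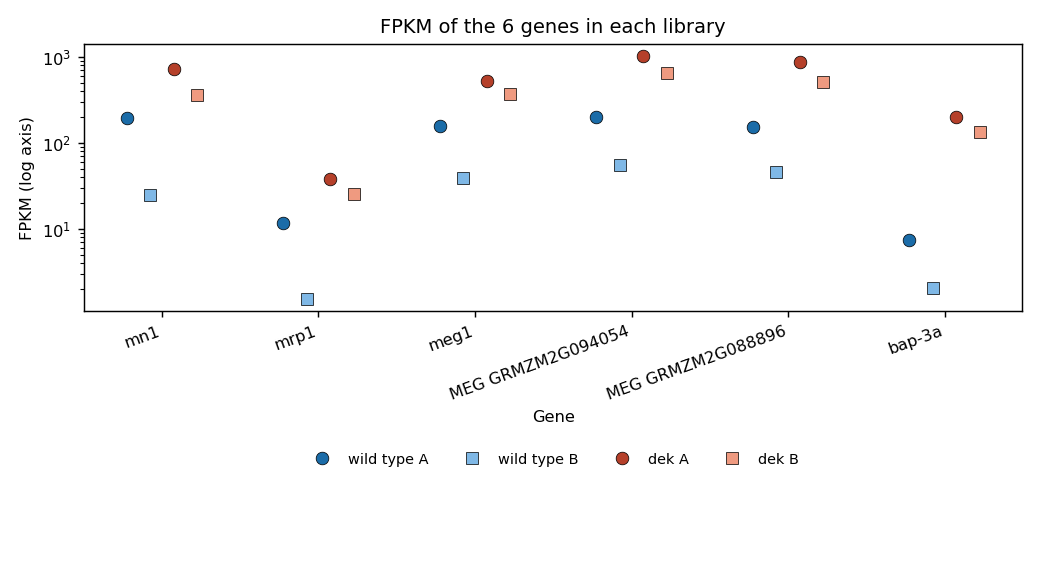
FPKM of each gene (x axis) on a log axis (y axis), 1 point per library, with blue for wild type, red for dek, circles for pool A and squares for pool B. For every gene wild type B is lowest and dek A highest, and bap-3a has the widest gap between the genotypes, from 7.41 in wild type A to 134 in dek B.

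The invertase gene mn1, or miniature1, encodes the cell wall invertase INCW2, which splits sucrose into glucose and fructose at the transfer layer. Its level was 193 FPKM in wild type A, 25.1 in wild type B, 721 in dek A and 358 in dek B, from 6075, 712, 23039 and 11377 counts. The groups did not overlap, but dek B stood only 1.85 times above wild type A, while the wild-type pools differed 7.69-fold. The mean was 109 ± 119 FPKM in wild type and 539 ± 257 in dek (SD, n = 2 per genotype). The log2 fold change was 1.99 ± 0.886 (SE), with an adjusted p of 0.177 in edgeR. When wild type A was left out the edgeR adjusted p became 0.00291 and the log2 fold change 4.11, and when wild type B was left out they were 0.115 and 1.16.

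The gene given as mrp1 encodes a MYB-related transcription factor that activates promoters of transfer layer genes. The deposited annotation describes GRMZM2G111306 as a myb-like protein J, and the name mrp1 comes from the list. Another model, GRMZM2G113203, carries MRP1 as a RefSeq synonym, but it is described as a multidrug resistance protein and was not used. The level of mrp1 was 11.6 FPKM in wild type A and 1.54 in wild type B, from 168 and 20 counts. It was 37.8 FPKM in dek A and 25.4 in dek B, from 556 and 371 counts. It was the lowest of the 6 in 3 libraries, and in wild type A it came just above bap-3a. The log2 fold change was 1.94 ± 0.762 (SE), with an adjusted p of 0.136 in edgeR. As for mn1, the only alternative that gave an edgeR call was the one without wild type A, at an adjusted p of 0.0016 and a log2 fold change of 4.05, and without wild type B the values were 0.0567 and 1.13.

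The ratio of mn1 to mrp1 was similar in the wild-type pools although both genes differed strongly between them. The FPKM of mn1 was 16.6 times that of mrp1 in wild type A and 16.3 times in wild type B. With only 20 mrp1 counts in wild type B, the ratio there is imprecise. It was 19.0 times that of mrp1 in dek A and 14.1 times in dek B, so the dek values lay on either side.

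MEG genes encode small secreted cysteine-rich peptides, and meg1 is known for early expression from the maternal allele and for promoting the formation of transfer cells. Its level was 158 FPKM in wild type A, 39.2 in wild type B, 521 in dek A and 366 in dek B. The groups did not overlap, and dek B was 2.32 times wild type A. The log2 fold change of 1.86 ± 0.604 (SE) missed the threshold at an adjusted p of 0.0887 in edgeR. It passed without wild type A and without wild type B, with edgeR adjusted p of 0.00112 and 0.0309 and log2 fold changes of 3.20 and 1.18.

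The MEG-type gene GRMZM2G094054 had 198 FPKM in wild type A, 55.9 in wild type B, 1015 in dek A and 651 in dek B. It had the highest level of the 6 in every library. It rose by a log2 fold change of 2.41 ± 0.582 (SE), with an adjusted p of 0.0434 in edgeR. Without dek A the adjusted p was 0.164 and without dek B it was 0.105, so the call was lost in both fits.

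GRMZM2G088896, described as a MATERNALLY EXPRESSED GENE 3 precursor, had 154 FPKM in wild type A, 46.3 in wild type B, 865 in dek A and 503 in dek B. It rose by a log2 fold change of 2.46 ± 0.576 (SE), with an adjusted p of 0.0402 in edgeR. This call too was lost without dek A (edgeR adjusted p = 0.158) and without dek B (0.093). For both MEG-type genes the lower dek library was more than 3 times the higher wild-type library.

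These MEG-type models are not independent of each other. In RefSeq both GRMZM2G094054 and GRMZM2G088896 are listed under a single gene with the synonyms MEG6 and meg2, and 4 protein-coding genes lie between it and meg1 on chromosome 7 of the NAM-5.0 assembly. Estimated counts are not whole where reads were divided among similar genes. Those of GRMZM2G094054 and GRMZM2G088896 were not whole in any library and those of meg1 only in dek B, so the first pair is uncertain model by model. The ratio of GRMZM2G094054 to GRMZM2G088896 stayed between 1.17 and 1.30 in all 4 libraries.

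The 4 MEG-type models (meg1, both of these and GRMZM2G344323) were also summed to 1 row before the fit. The sum was 4222 counts in wild type A and 1037 in wild type B, and it was 20026 in dek A and 12769 in dek B. The log2 fold change of the sum was 2.28 ± 0.598 (SE), with an edgeR adjusted p of 0.0531, so the call was lost in that form.

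The antifungal peptide gene bap-3a belongs to a family of small peptides, some with antifungal activity, that transfer cells secrete. Its level was 7.41 FPKM in wild type A and 2.08 in wild type B, from 63 and 16 counts. It was 199 FPKM in dek A and 134 in dek B, from 1724 and 1161 counts. The lower dek library was 18.1 times the higher wild-type library, a gap wider than the 3.56-fold difference between the wild-type pools. It rose by a log2 fold change of 4.80 ± 0.505 (SE), with an adjusted p of 0.00571 in edgeR. Its estimated counts were whole in every library.

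In RefSeq bap-3a stands beside bap-3b (GRMZM2G133370) with no protein-coding gene between them, in a cluster on chromosome 10 that also holds bap1-b and bap-1a. The fold changes of these neighbours were smaller, and the difference was not tested. The levels of bap-3b were 134, 28.8, 373 and 291 FPKM. Its log2 fold change was 1.72 ± 0.641 (SE), with an edgeR adjusted p of 0.121. The level of bap-3a was 5.55% of that of bap-3b in wild type A and 7.22% in wild type B, but 53.3% in dek A and 46.2% in dek B. The antifungal peptide genes bap-1a (GRMZM2G008271) and bap1-b (GRMZM2G008403) had log2 fold changes of 1.07 ± 0.615 and 1.70 ± 0.600 (SE), which did not pass.

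**Figure D2:**
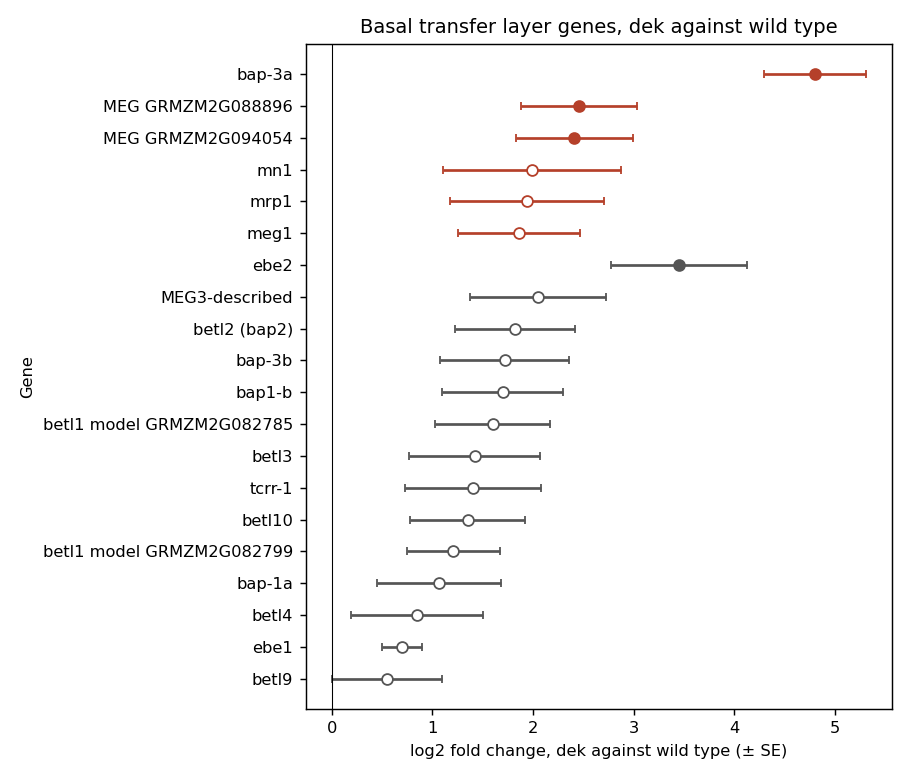
Log2 fold change of dek against wild type with its SE (x axis) for each basal transfer layer gene (y axis), red for the 6 genes and grey for 14 others; filled circles were called by edgeR and open circles were not. All points lie above 0, and 4 are filled: bap-3a, both MEG-type genes and ebe2.

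A further 14 gene models were matched to the basal transfer layer by symbol or description, and all 14 were tested. They were betl peptide genes, other bap genes, ebe genes, the response regulator gene tcrr-1 and a MEG-described model. In edgeR 1 was called higher, where 7.98% of all genes tested were, and none lower, where 8.85% were. An unadjusted p under 0.05 was seen for 8 of the 14 (34.2% of all genes tested). The median log2 fold change of the 14 was 1.41. All 14 values were above 0, from 0.55 for betl9 (GRMZM2G087413) to 3.45 for ebe2, but that of betl9 was -0.07 without wild type B. In FPKM, which TMM does not scale, both dek libraries lay above both wild-type libraries for 12 of the 14 (51.1% of all genes tested). The groups of betl9 and betl4 (GRMZM2G073290) overlapped on that scale. Left-out libraries moved this median to 2.78 without wild type A and 0.68 without wild type B. It was 1.08 without dek A and 1.59 without dek B.

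The called gene was ebe2 (GRMZM2G167733), named for expression in the embryo sac, the basal endosperm and the embryo-surrounding region. It was low in wild type A at 2.83 FPKM and in wild type B at 0.52, from 42 and 7 counts, and it reached 30.8 FPKM in dek A and 15.8 in dek B. Its log2 fold change was 3.45 ± 0.680 (SE), with an edgeR adjusted p of 0.0261. Without dek A the adjusted p was 0.129, and without dek B it was 0.0678. The related ebe1 (GRMZM2G129157) had levels of 4.24, 3.28, 7.99 and 7.12 FPKM, with an edgeR adjusted p of 0.0656.

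The most abundant of the 14 others did not pass. The betl9 gene had the highest level of these 20 genes in all libraries except dek B, with 1162, 358, 1739 and 1019 FPKM, and its groups overlapped. For betl1, 2 models were matched to a single RefSeq gene, GRMZM2G082799 only through a protein accession. GRMZM2G082799 had 668, 237, 1492 and 1088 FPKM, the last of these above betl9, and GRMZM2G082785 had 237, 63.8, 664 and 467. The edgeR adjusted p was 0.130 and 0.110 for these models. The betl2 gene (GRMZM2G152655), also named bap2, had 470, 127, 1602 and 1009 FPKM (edgeR adjusted p = 0.0905).

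Of the remaining basal genes, betl10 (GRMZM2G091445, a putative defensin) had 458, 120, 1007 and 808 FPKM. The betl3 gene (GRMZM2G175976) had 214, 43.6, 450 and 400.2, and the betl4 gene had 161, 39.5, 303 and 145. All 3 were lowest in wild type B, and none passed.

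The response regulator gene tcrr-1 (GRMZM2G016145), a transfer cell member of two-component signalling, had 28.8, 5.77, 72.5 and 41.7 FPKM. The MEG-described model GRMZM2G344323 had 8.62, 1.44, 27.4 and 22.7. The edgeR adjusted p was 0.201 for tcrr-1 and 0.0930 for the MEG-described model, so neither passed.

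The pools of a genotype differed in the same direction for every basal gene. On the TMM-scaled log2 CPM scale (counts scaled to library size), wild type A exceeded wild type B by 1.76 to 2.95 for the 6 genes, and 3.02% of all genes tested had a difference at least as large as the smallest of these. Over the 9503 genes averaging 10 FPKM or more the share was 1.10%. The median difference was 1.93 for the 6 genes, 1.97 for the 14 others and -0.02 over all genes tested. Wild type A was the higher pool for 14 of the 14 others.

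The dek pools differed less. Dek A exceeded dek B by 0.47 to 0.97 for the 6 genes, with a median of 0.57, against 0.54 for the 14 others and 0.00 over all genes tested. Of all genes tested, 12.9% differed by at least the smallest of these in that direction. As a ratio of scaled counts, mn1 was 7.76 times higher in wild type A than in B (exact 95% interval 7.17 to 8.39) and 1.96 times higher in dek A than in B. For mrp1 the wild-type ratio was 7.64 (4.79 to 12.8) and for bap-3a 3.58 (2.04 to 6.64), on far fewer counts. These Clopper-Pearson intervals cover counting error only.

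**Figure D3:**
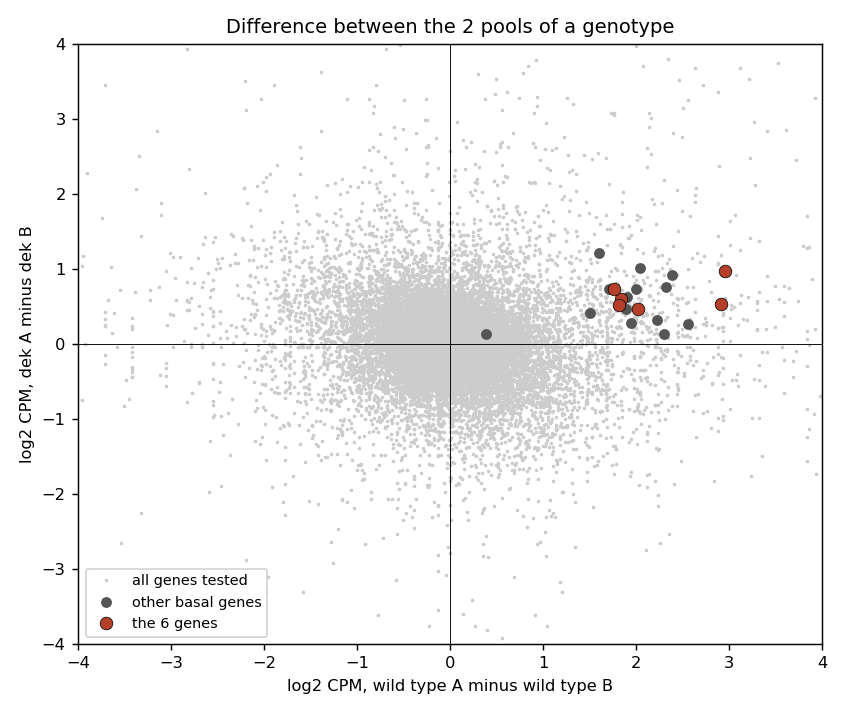
Difference in log2 CPM between wild type A and B (x axis) and between dek A and B (y axis) for each gene tested, with grey dots for all genes, dark circles for 14 other basal genes and red circles for the 6 genes; 357 genes lie outside the axes. The basal genes sit to the right of 0 and above 0, with the 6 genes at 1.76 to 2.95 on the x axis.

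Markers of the neighbouring embryo-surrounding region also differed between the wild-type pools. The summed level of its 6 listed genes was 115, 22.5, 165 and 172 FPKM, and all 5 that were tested were higher in wild type A than in wild type B. The remaining one, ae3, had no counts in wild type. Of the 5 tested in edgeR none was called, none had an unadjusted p under 0.05, DESeq2 called 0, and the median of the log2 fold changes was 0.51. Without wild type A 3 were called higher, with a median of 2.61. The CLE peptide gene listed as ESR1 and esr2 (GRMZM2G315601) had 67.4, 12.7, 87.8 and 103 FPKM, and esr6 (GRMZM2G048353) had 26.4, 6.15, 58.6 and 48.1. Their part in the levels of the basal genes was not tested.

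The summed levels of other tissue markers did not share the high wild type A and low wild type B of the basal genes. For 8 aleurone genes the sum was 423, 529, 397 and 375 FPKM, with 2 called lower of 7 tested, 0 without dek A and likewise without dek B, and 1 higher and 1 lower with total counts alone. Most abundant among them were nkd1 (GRMZM2G129261), a regulator of aleurone identity, with 162, 248, 114 and 79.9 FPKM, and pac1 (GRMZM2G058432) with 110.4, 103, 125 and 148. For 27 zein genes, storage proteins of starchy endosperm, the sum was 62737, 59334, 3638 and 6293 FPKM, with all 25 tested genes called lower. The most abundant of these were gz27 (GRMZM2G138727), with a log2 fold change of -2.24, the smallest fall of the 25, and dzs10 (BGI_novel_G003037), with -4.81.

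For 11 embryo and oil-body genes the sum was 870, 1004, 203 and 192 FPKM, with 6 of 10 called lower and 4 without dek B. The oleosin genes ole1 (GRMZM2G337229) and GRMZM2G480954 fell, by log2 fold changes of -3.13 and -3.59. For 47 photosynthesis genes the sum was 35.4, 60.1, 23.7 and 21.8 FPKM, with 8 of 14 tested called lower, 3 without wild type B and 0 without dek A and likewise without dek B. The most abundant of these were psbB (GRMZM2G427444), with 3.77, 17.1, 2.75 and 2.61 FPKM, and a chlorophyll a-b binding protein gene (GRMZM2G038519) with 3.26, 2.73, 7.60 and 6.90.

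Relative to the rest of the transfer layer, the 6 genes had a larger share in dek, and so did 6 of the 14 others without overlap. Each gene's FPKM was divided by the summed FPKM of the 14 other basal genes in the same library, which was 3826 in wild type A, 1100.1 in wild type B, 8376 in dek A and 5657 in dek B. This measure was added after the data were seen and carries no test. For bap-3a the share was 0.194% in wild type A, 0.189% in wild type B, 2.37% in dek A and 2.38% in dek B. It was 12.4 times higher in dek, and the pools of each genotype nearly coincided. The wild-type shares rest on 63 and 16 bap-3a counts. Counting error alone left the ratio of scaled counts between these pools, 3.58, anywhere from 2.04 to 6.64. The near match in wild type is therefore imprecise.

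For meg1, GRMZM2G094054 and GRMZM2G088896 the pools were also close on this scale, with smaller differences between genotypes. The shares of GRMZM2G094054 were 5.16%, 5.08%, 12.1% and 11.5%. Those of GRMZM2G088896 were 4.04%, 4.21%, 10.3% and 8.89%, and those of meg1 4.13%, 3.56%, 6.22% and 6.47%. The wild-type pools, which differed 3.33-fold to 4.03-fold in the FPKM of these genes, differed by at most 1.16-fold in their share. The MEG-described GRMZM2G344323, set against the 13 other basal genes, had shares of 0.226%, 0.131%, 0.328% and 0.403%, and its wild-type pools differed 1.72-fold.

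The invertase and mrp1 kept a difference between wild-type pools. The share of mn1 was 5.05% in wild type A, 2.28% in wild type B, 8.61% in dek A and 6.33% in dek B. That of mrp1 was 0.304%, 0.140%, 0.452% and 0.448%. Wild type A was thus 2.21 and 2.17 times wild type B for these genes, and the groups did not overlap.

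Among the 14 others, each set against the remaining 13, the ratio of dek to wild type ran from 0.523 for betl9 to 5.44 for ebe2, with a median of 1.27. For 7 of them the groups did not overlap, 6 of these higher in dek. On this scale, whose divisor was itself larger in dek, 2.81% of all genes tested lay higher in both dek libraries and 63.3% lower. The betl9 share was 43.6%, 48.2%, 26.2% and 22.0%, lower in both dek libraries. As betl9 had the highest FPKM of the 14 except in dek B, its lower share raises the shares of other genes in dek. The ratio of dek to wild type was 1.68 for betl2, 1.61 for bap-3b and 2.11 for GRMZM2G344323, against 1.65 for meg1.

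**Figure D4:**
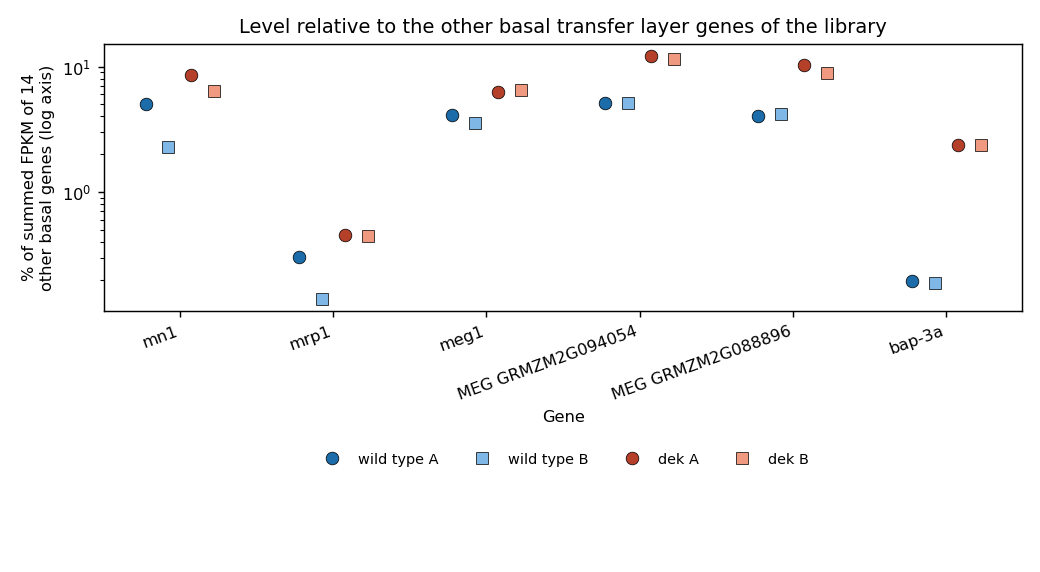
FPKM of each of the 6 genes as a percentage of the summed FPKM of 14 other basal genes in the same library (log y axis), 1 point per library, coloured and shaped as in the plot of FPKM. The pools of a genotype almost coincide for bap-3a (0.194% and 0.189% against 2.37% and 2.38%), while mn1 and mrp1 are lower in wild type B than in wild type A. The wild-type values of bap-3a rest on 63 and 16 counts.

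Which of the 6 genes were called depended on the library set. Without wild type A all 6 were called higher, and 6.73% of all genes were. Without wild type B 4 were called, with 5.26% of all genes, and meg1 was the addition to the 3 called with all libraries. Without dek A and without dek B only bap-3a was called, with 1.11% and 1.36% of all genes. A lone library in such a fit is assumed to vary like the other genotype. The bap-3a gene was called in each of these 4 fits, with edgeR adjusted p from 0.000468 to 0.0332 and log2 fold changes from 4.18 to 6.01.

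**Figure D5:**
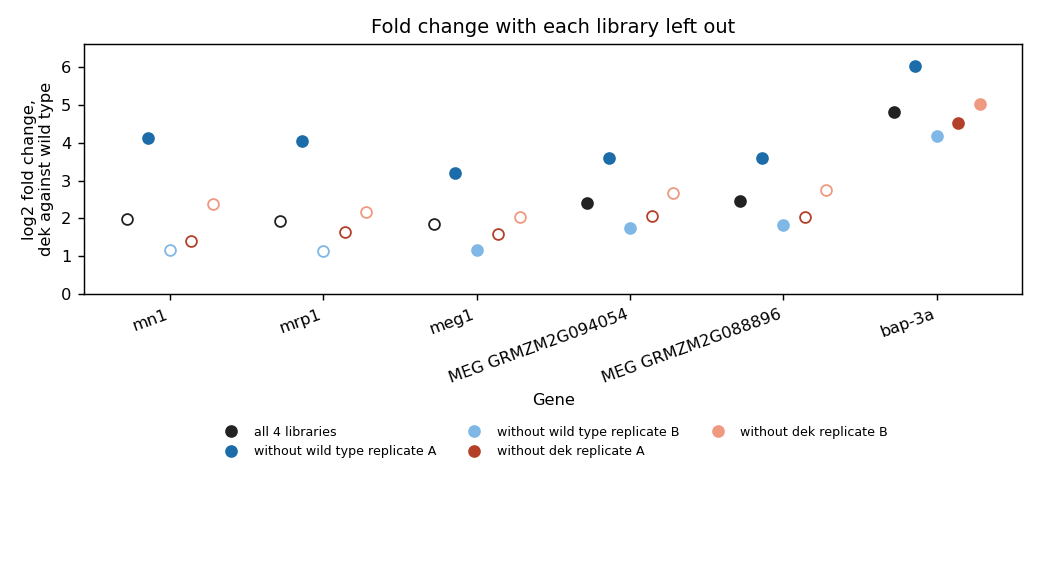
Log2 fold change of dek against wild type (y axis) for each of the 6 genes (x axis) with all 4 libraries and with each library left out; filled circles were called by edgeR and open circles were not. Leaving out wild type A gives the highest value for every gene, and bap-3a is filled in all 5 fits.

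The sucrose supply to which mn1 belongs was examined through 23 other invertase, invertase inhibitor and sucrose transport genes, of which 13 passed the filter. In edgeR 2 were called higher, where 7.98% of all genes tested were, and none lower. The median of the log2 fold changes was 0.55. With total counts alone 5 were called higher and none lower, but that setting shifted the whole table. Its median over all genes was 0.32 against 0.01, and calls over all genes in both directions were 5781 against 4143. A sucrose transporter gene described as BoSUT1 (GRMZM2G081589) had 1.36, 1.17, 7.51 and 10.4 FPKM, with a log2 fold change of 2.52 ± 0.276 (SE) and an edgeR adjusted p of 0.00627, and it was called in every fit without 1 library. The sucrose transporter gene sut1 (GRMZM2G034302) had 6.64, 5.11, 19.9 and 12.8 FPKM, with a log2 fold change of 1.12 ± 0.275 (SE) and an edgeR adjusted p of 0.0449. The sut1 call was lost without wild type B (edgeR adjusted p = 0.114), without dek A (0.200) and without dek B (0.0602).

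The other invertases named for the cell wall or vacuole were far below mn1. The cell wall invertase gene incw1 (GRMZM2G139300) had 2.12, 2.18, 4.67 and 5.35 FPKM, with an edgeR adjusted p of 0.0516. The vacuolar invertase genes ivr1 (GRMZM2G394450) and ivr2 (GRMZM2G089836) stayed under 1.1 FPKM in every library, and a gene described as Incw4 (GRMZM2G119941) stayed under 0.25. The incw1, ivr1 and ivr2 genes did not share the strong drop of mn1 in wild type B. The ivr1 gene had 0.23 FPKM in wild type A and 0.19 in wild type B. Other genes of this list, such as sut1 and BoSUT1, were also lowest in wild type B, by smaller margins than mn1. A further pair, named after their values were seen, were much lower in wild type B than in wild type A. A SUT1-like gene (GRMZM2G087901) had 8.67, 1.11, 19.3 and 13.1 FPKM. A gene described as an insoluble beta-fructofuranosidase (GRMZM2G018716), the enzyme class of cell wall invertases, had 13, 0, 13 and 4 counts, and its genotypes overlapped.

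Genes with a pattern most like that of a given gene were found by the root-mean-square distance between centred log2 CPM values over the 4 libraries, with 6575 candidates outside the 6 genes that averaged 5 FPKM or more and had an informative description. Nearest to mn1 was an L-ascorbate oxidase homolog (GRMZM2G360529, distance 0.129), with 11.7, 1.34, 36.4 and 22.6 FPKM. An early nodulin-like gene (GRMZM2G010762, 0.248), a putative lipid-transfer protein gene (GRMZM2G155555, 0.259) and the MEG-described GRMZM2G344323 (0.288) came next. Of the 6 genes themselves, mrp1 lay at 0.155 from mn1, and the nearest to meg1 was GRMZM2G094054 at 0.253. Nearest to meg1 were betl2 (0.0838) and bap-3b (0.0948), then a REVEILLE 1-like gene (AC199820.4_FG006, 0.114).

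The fourth for meg1 was a model described as maternally expressed protein 12 (BGI_novel_G002276, 0.150), which the wording of the basal list had not matched. Its levels were 4.72, 1.35, 20.6 and 13.8 FPKM. For bap-3a no candidate lay as close, and the others of the 6 genes were at 1.20 to 1.44. The nearest were an IAA29-like gene (GRMZM2G148188, 0.443), a 21 kDa protein-like gene (GRMZM2G046111, 0.552), beta-expansin 7 (GRMZM2G342246, 0.629) and the glutathione S-transferase GSTU6 (GRMZM2G097989, 0.638). None of these 4 was a basal list gene.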

How the data were processed

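Per the file headers, each library has 1 table with transcript length, expected count and FPKM by gene. The deposited expected counts are estimates that need not be whole, and the deposited FPKM values, per the file headers, are fragments scaled to transcript length and library size. HISAT, Bowtie2, RSEM and GATK appear in the submitters' processing notes without version or role; the genome build was not given in the sources used here. Genes absent from 1 table were set to 0 there.

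Estimated counts were rounded and fitted with edgeR 4.0.16 in R 4.3.3 (quasi-likelihood test, TMM factors from 0.895 to 1.128, filterByExpr, no covariates). The SE of a log2 fold change is its size divided by the root of the F statistic. With 2 libraries a genotype, permuting labels cannot give p below 0.333, so p-values rest on the model and refer to spread between pools. Names came from a RefSeq table of the NAM-5.0 assembly, by model identifier for 17811 genes and by protein accession for 5865. Only symbols from the former were used to build the gene lists. The names psbB and dzs10, and the RefSeq gene of GRMZM2G082799, came from a protein accession, which need not name the gene itself.

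The 6 genes, the gene lists and the rule for named genes were chosen with earlier results of these data known. The rule took all 6 genes, all other basal list genes, a fixed set of invertase and transport genes with up to 6 called, the 2 most abundant genes of each other list and the 4 nearest patterns of mn1, meg1 and bap-3a. After identifiers and values were seen, 10 genes were dropped from lists as other kinds of protein, or, from the embryo-surrounding list, as ebe genes.

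Alternatives were other scalings, DESeq2 1.42.0, limma 3.58.1 on log2 FPKM (pseudocounts 1 and 0.1), other filters, replicate blocks, MEG-type genes summed and each library left out. On simulated counts for 24624 genes, edgeR recovered 16 of 50 genes changed 2-fold, 40 changed 4-fold, 48 changed 8-fold and 49 changed 16-fold. It called 25 of 24424 unchanged genes. The changed genes were picked at random, all were raised, and each gene was drawn independently of the others. These recoveries therefore do not give the power for the basal genes, which moved together between pools.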

Additional observations from a re-analysis of the deposited data

How the results depend on the processing

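Under 14 alternatives no log2 fold change of the 6 genes changed sign. The bap-3a gene was called in all 14, mn1 and mrp1 in 1 each (without wild type A), and meg1 in 4 of 13. With MEG-type genes summed, which merges 3 of the 6 genes into the sum, 1 of the other 3 was called. With a library left out the number called ranged from 1 to 6. Of the 14 other basal genes, the number called was 2 with total counts alone and with DESeq2, 5 and 3 with limma at a pseudocount of 1 and 0.1, and from 0 to 13 with a library left out. Without dek A and without dek B that number was 0 in edgeR, with 1 and 4 at an unadjusted p under 0.05, where 23.1% and 24.5% of all genes were. Calls over all genes ranged from 746 to 3697 with a library left out. The betl9 log2 fold change ranged from -0.07 without wild type B (edgeR adjusted p = 0.911) to 1.64 without wild type A (0.0212); the other basal genes kept their sign. With total counts alone the median over all genes was 0.32 and that of the 6 genes 2.52. Calls over all genes, in both directions, were 4143 in the main fit, 5781 with total counts alone and 4802 with DESeq2. They were 5809 and 5405 with limma at a pseudocount of 1 and 0.1.

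The title letters do not state a pairing. Over all genes tested, same-letter libraries did not deviate together (r = 0.000762 across genes, which are not independent replicates). Library A was above library B in both genotypes for all 6 genes and all 14 others. Of the 24624 genes tested, A was above B for 11796 in wild type and 12216 in dek. The basal genes moved together within a library, so their shared direction is not independent evidence of a pairing. With a replicate block by letter 1891 genes were called in all, 3 of the 6 genes and 3 of the 14 others. With the crossed replicate block 4229 genes were called in all, again 3 of the 6 genes, and 1 of the 14 others. Depth limits mrp1 and bap-3a most, with 20 and 16 counts in wild type B.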
